A study of Mus musculus with 50 samples.

Results

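The genes described here encode the respiratory chain and ATP synthase of mitochondria. They were all genes on the array whose single symbol begins with Nduf, Uqcr, Atp5, Sdha, Sdhb, Sdhc, Sdhd, Cycs or Cyc1, or with Cox followed by a digit, and each was read by its brightest probe set. The rule took 80 of the 8251 genes with a single symbol. Of these, 31 belong to complex I, 6 to complex II, 8 to complex III, 20 to complex IV and 14 to complex V, and Cycs is cytochrome c. By role, 70 are subunits, 9 are assembly factors and 1 is a mobile electron carrier. A filter on low signal left 73 of the 80 for testing. A further 11 probe sets that carry several symbols were not used, and the subunits encoded by mitochondrial DNA are outside the rule.

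The study hybridised RNA of neocortex and hippocampus from mice aged 8 weeks to 50 oligonucleotide arrays, 25 per tissue. In either tissue there were 10 wild-type mice (5 male, 5 female), 10 mice labelled S1P2-KO (5 male, 5 female) and 5 mice labelled S1P3-KO (2 male, 3 female). S1P2 and S1P3 are receptors for sphingosine 1-phosphate. Mice lacking S1P2 had sporadic seizures between weeks 4 and 7 of age and mice lacking S1P3 did not, per the series' design text, so all tissue was taken after that period. The labels call the replicates biological. They do not give the strain, how the receptor genes were inactivated, or whether both tissues came from the same mice.

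The respiratory chain passes electrons from NADH (complex I) and succinate (complex II) through complex III and cytochrome c to oxygen at complex IV. The proton gradient that complexes I, III and IV build drives ATP synthesis at complex V, on which neurons depend heavily for ion pumping after firing. Several subunits of complex IV exist as isoform pairs, with a widely expressed form and a form known from heart and skeletal muscle or from testis. Nuclear respiratory factor 1 (NRF-1), ETS-family factors such as GABP, and YY1 are known regulators of many nuclear genes of the chain.

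The nuclear promoters of the members were compared with those motifs, since the members are often described as jointly controlled. RefSeq sequence (GRCm38.p6) of the 250 bases before the gene start was at hand for 64 of the 80 members, and 16 had no entry, among them Cox6a2. The letters GCATGCGC (NRF-1), on either strand, stood in 9 of the 64 windows (14.1%), against 2.32% of all 27025 mouse promoters and 3.97% of the 6573 promoters of genes on the array. The ETS letters CCGGAAG stood in 14 (21.9%), against 7.05% and 12.28%. The YY1 letters ATGGCGG stood in 4 (6.2%), against 2.19% and 3.32%, and TATAAA stood in 5 (7.8%), against 12.97% and 9.33%. Of the 11 members that differed between the tissues in at least 1 genotype and had a promoter entry, 1 held the NRF-1 letters, 2 the ETS letters, 1 the YY1 letters and 1 TATAAA. A match is a description of the letters, and a missing match says only that they are not in this window. The 4 promoters printed next show the range: Ndufb11, which was higher in hippocampus in every genotype, had none of the 4 motifs; Uqcr11, also higher in wild-type hippocampus, held the ETS letters; Cycs held the NRF-1 letters; and Cox6a1, at nearly equal levels in both tissues, held 2 overlapping NRF-1 matches and the ETS letters on the opposite strand. All 4 lie on the minus strand, are written 5′ to 3′ toward the gene, and have the matched letters in capitals. Ndufb11 is at chrX:20617620-20617869, Uqcr11 at chr10:80406822-80407071, Cycs at chr6:50566570-50566819 and Cox6a1 at chr5:115348959-115349208.
Ndufb11: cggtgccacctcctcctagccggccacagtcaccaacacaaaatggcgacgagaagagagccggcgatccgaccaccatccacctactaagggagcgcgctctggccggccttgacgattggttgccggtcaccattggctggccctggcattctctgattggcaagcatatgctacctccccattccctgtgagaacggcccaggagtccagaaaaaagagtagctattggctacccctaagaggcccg
Uqcr11: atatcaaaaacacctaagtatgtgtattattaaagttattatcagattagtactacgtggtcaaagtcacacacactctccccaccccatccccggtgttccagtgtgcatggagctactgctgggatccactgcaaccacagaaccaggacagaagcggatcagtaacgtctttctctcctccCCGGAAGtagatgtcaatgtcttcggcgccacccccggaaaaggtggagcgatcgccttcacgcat
Cycs: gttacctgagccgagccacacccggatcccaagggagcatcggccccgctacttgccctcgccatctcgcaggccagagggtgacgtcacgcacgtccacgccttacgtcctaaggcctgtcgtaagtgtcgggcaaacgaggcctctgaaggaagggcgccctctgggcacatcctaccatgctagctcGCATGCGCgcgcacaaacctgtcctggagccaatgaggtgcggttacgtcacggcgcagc
Cox6a1: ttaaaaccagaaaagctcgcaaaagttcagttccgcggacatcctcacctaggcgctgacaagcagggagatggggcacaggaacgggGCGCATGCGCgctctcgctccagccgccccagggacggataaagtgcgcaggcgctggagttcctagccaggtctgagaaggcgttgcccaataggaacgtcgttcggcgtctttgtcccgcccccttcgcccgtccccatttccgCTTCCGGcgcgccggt

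Array signals are the authors' linear values, and differences are on the log2(signal + 30.7) scale from limma, with p adjusted by Benjamini-Hochberg over all 8534 probe sets tested and a threshold of 0.05. Signals of different genes come from different probes and were not read as differences in RNA amount between genes. Markers of the tissues matched the labels: in wild-type arrays Dsp, a desmosome gene of dentate granule cells, was 3.03 higher in hippocampus, and Mef2c, strong in cortical neurons, was lower in hippocampus (-3.22). The targeted genes did not check the genotype labels. S1pr2 ran from 425.6 to 875.8 (median 727.4) in wild-type and from 347.7 to 824.7 (median 646.7) in S1P2-KO neocortex. S1pr3 ran from 470.3 to 1129.1 (median 859.8) in wild-type and from 451.4 to 551.9 (median 480.7) in S1P3-KO hippocampus, a difference of -0.69 ± 0.18 (SE; limma adjusted p = 0.164). Where their probes lie relative to the altered part of either gene is not given in the labels, so the genotypes rest on the labels. On 3 hippocampus arrays the 3′ control probes of Gapdh and beta-actin were much brighter than the 5′ ones, a sign of RNA or labelling quality. Their 3′ bias, the mean log2 ratio of both genes, stood at these values: wild-type replicate 4 at 1.198, S1P2-KO replicate 7 at 1.368 and S1P3-KO replicate 5 at 4.46. The neocortex arrays ran from 0.008 to 0.606. These 3 are called the 3′-biased arrays, and where stated, results are also given without them. The median ratios of neocortex and hippocampus were 0.38 and 0.39 in wild-type, 0.26 and 0.31 in S1P2-KO and 0.235 and 0.42 in S1P3-KO mice. Every S1P3-KO hippocampus array (0.403 to 4.46) was above every S1P3-KO neocortex array (0.21 to 0.357). Leaving out the 3 arrays does not remove that difference.

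Hippocampus had slightly higher levels of most respiratory chain genes than neocortex, and far lower levels of Cox6a2, the muscle-type isoform of subunit VIa of cytochrome c oxidase. In wild-type mice 61 of the 73 tested members had a higher mean in hippocampus, against 51% of all probe sets. The median difference was 0.10 (median SE of a member 0.09), against 0.01 over all probe sets. In all 9 of 73 passed, 8 as higher and 1 as lower, where 14.6% of all probe sets passed (7.83% higher and 6.74% lower). At an unadjusted p under 0.05 the members numbered 17 (23.3%), against 26.5% of all probe sets, so the share of members past either threshold was near the background. Of the 8 that were higher, 7 belong to complex I and the other is Uqcr11 of complex III. Whether a lower signal reflects fewer cells of a type or less RNA per cell cannot be told apart in whole tissue.

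The S1P2-KO and S1P3-KO mice gave their own tissue comparisons on separate arrays. In S1P2-KO mice 63 of 73 members had a higher mean in hippocampus (52.9% of all probe sets), with a median of 0.10; 3 passed as higher and 1 as lower, against 7.62% and 7.09% of all probe sets. In S1P3-KO mice 57 of 73 had a higher mean (49.4% of all probe sets), with a median of 0.14; 5 passed as higher and 1 as lower, against 5.99% and 6% of all. Cox6a2 and Ndufb11 passed in all 3 genotypes, Ndufa5 in both wild-type and S1P2-KO mice, 11 members in a single genotype, and 59 in none. The estimate was above 0 in all 3 genotypes for 49 members. Without the 3′-biased arrays, 59 members were higher in wild-type, 63 in S1P2-KO and 50 in S1P3-KO mice, and 8, 4 and 3 members passed. The medians were then 0.09, 0.09 and 0.05, so that the S1P3-KO median fell most. With the 3′ bias as covariate, or in a fit over the groups compared alone, Cox6a2 was the only member that passed in S1P3-KO mice. With arrays centred on their median it was the only member that passed in S1P2-KO mice, and in wild-type mice Ndufa5, Ndufb10, Ndufb11 and Ndufaf4 then missed the threshold.

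**Figure D1:**
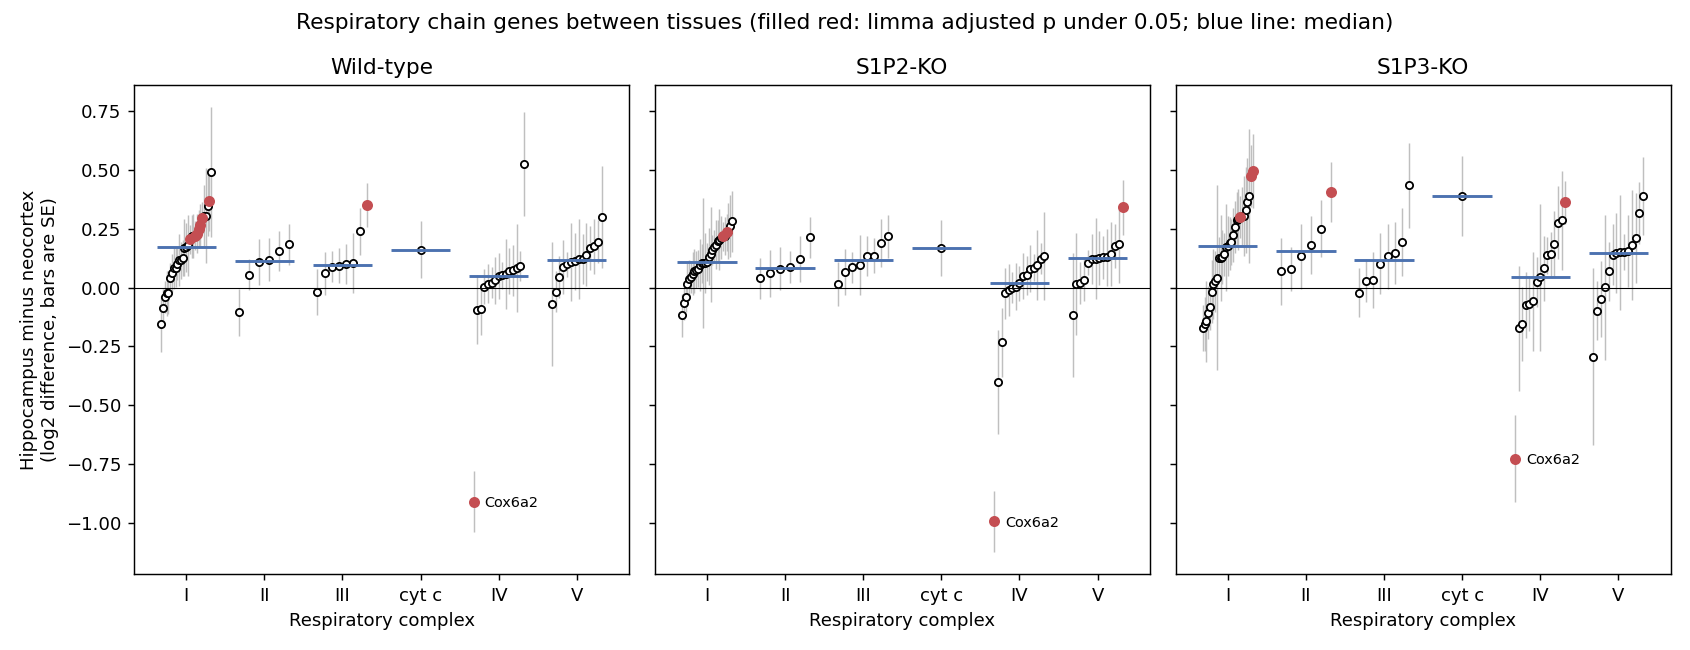
Difference between hippocampus and neocortex (log2, hippocampus minus neocortex, points with SE bars) for each of the 73 tested genes, arranged by complex, in separate panels for wild-type, S1P2-KO and S1P3-KO mice; red points passed the limma threshold and blue lines are the median of each complex. Most points lie a little above 0, with wild-type medians of 0.17 for complex I and 0.05 for complex IV, and the red point far below 0 in each panel is Cox6a2.

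A single estimate over the 3 genotypes, the mean of their tissue differences, was added after these values were seen. Here 64 of 73 members were higher in hippocampus (50.9% of all probe sets) with a median of 0.12. In it 24 members passed as higher and 1 as lower, against 17.2% and 15% of all 8534 probe sets. The 24 comprised 13 of complex I, 2 of complex II, 3 of complex III, cytochrome c, 1 of complex IV and 4 of complex V. Cox6a2 had the largest estimate (-0.88 ± 0.09 SE, limma adjusted p = 8.78e-12), followed by p-value by Ndufb11 (0.25 ± 0.04, limma adjusted p = 4.96e-06), Ndufc1 (0.30, limma adjusted p = 0.000106), Ndufv2 (0.22, limma adjusted p = 0.000146) and Cox5b (0.19, limma adjusted p = 0.000318). The count was 18 without S1P3-KO hippocampus replicate 5 and 16 without all 3 of the 3′-biased arrays.

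Complex I oxidises NADH and has the most subunits of the chain. In wild-type mice it held most of the members that passed between the tissues. Of its 29 tested genes (73 members in all) 24 were higher in wild-type hippocampus, with a median of 0.17. Of the 29, 7 passed as higher (24.1%), against 7.83% of all probe sets. In S1P2-KO mice 2 of its genes passed as higher (6.9%, against 7.62% of all), among 4 members that passed. In S1P3-KO mice 3 did (10.3%, against 5.99%), among 6 members that passed. Ndufv2, an iron-sulfur subunit of the NADH-binding module, ran from 4940.8 to 6485.8 (median 5411.75) in wild-type neocortex and from 5787.5 to 8720.3 (median 6796.7) in hippocampus. All 10 hippocampus arrays were above the neocortex median and 6 were above every neocortex array. The difference was 0.29 ± 0.07 (SE, n = 10 and 10; limma adjusted p = 0.00148). A dimmer probe set of Ndufv2 gave 0.00 ± 0.10 (limma adjusted p = 0.999), and the mean of the gene's probe sets gave 0.15 (limma adjusted p = 0.114).

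Ndufb11 encodes an accessory subunit of the membrane arm and lies on the X chromosome. In wild-type mice its signal ran from 3379.7 to 4102.9 (median 3672.7) in neocortex and from 3996.4 to 4902.7 (median 4237.85) in hippocampus, where 6 of 10 arrays were above every neocortex array (0.22 ± 0.06 SE, limma adjusted p = 0.0102). In S1P2-KO mice it ran from 3134.6 to 3963.3 (median 3485.25) in neocortex and from 3829.4 to 4887.2 (median 4017.9) in hippocampus. There 7 of 10 hippocampus arrays lay above all of neocortex, with a difference of the same size (0.22 ± 0.06 SE, limma adjusted p = 0.0116). The S1P3-KO neocortex arrays read 3935.3, 3317.2, 3319, 4047.2 and 3737.6 and the hippocampus arrays 4037.5, 3900.5, 4981.6, 3979.9 and 5936.9. All 5 hippocampus arrays exceeded the neocortex median and 2 exceeded all of neocortex (0.30 ± 0.09 SE, limma adjusted p = 0.0181). Without S1P3-KO hippocampus replicate 5, the brightest, the S1P3-KO value was 0.20 and did not pass (limma adjusted p = 0.137). With arrays centred on their median the gene missed the threshold in wild-type (limma adjusted p = 0.0673) and S1P2-KO mice (limma adjusted p = 0.0935).

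Ndufa5 and Ndufa13 are accessory subunits of complex I, the latter also known as the GRIM-19 protein. Ndufa5 ran from 6826.4 to 8443 (median 7124.3) in wild-type neocortex and from 7568.9 to 9913.2 (median 8675.95) in hippocampus. All 10 hippocampus arrays were above the neocortex median, and the difference was 0.25 ± 0.08 (SE; limma adjusted p = 0.0243). In S1P2-KO mice it ran from 6271.7 to 8535.4 (median 7007.6) in neocortex and from 7084.5 to 9929.8 (median 8483.9) in hippocampus (0.23 ± 0.08 SE, limma adjusted p = 0.0354). Both tissues overlapped there, though again all 10 hippocampus arrays exceeded the neocortex median, and the S1P2-KO call was lost in 10 of the 20 fits that leave out an array. Leaving out wild-type hippocampus replicate 4, a 3′-biased array, left Ndufa5 at 0.22 in wild-type mice, not past the threshold (limma adjusted p = 0.0598). Ndufa13 ran from 2295.6 to 2802.3 (median 2547.45) in wild-type neocortex and from 2532.4 to 3395.5 (median 2856.6) in hippocampus, with 6 of 10 hippocampus arrays above all of neocortex (0.20 ± 0.06 SE, limma adjusted p = 0.0199).

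Ndufb10 and Ndufa3, further accessory subunits, and Ndufaf4, an assembly factor that is not part of the finished complex, also passed in wild-type mice. Ndufb10 ran from 3905.4 to 5710.6 (median 4421.85) in neocortex and from 4531.5 to 7265.6 (median 5294.45) in hippocampus (0.27 ± 0.09 SE, limma adjusted p = 0.0329). Ndufaf4 ran from 411.2 to 561.9 (median 499.55) in neocortex and from 481.3 to 788.6 (median 683.25) in hippocampus (0.37 ± 0.13 SE, limma adjusted p = 0.0436). Its hippocampus arrays fell apart into 8 above every neocortex array and 2 below the neocortex median. Ndufa3 ran from 7506.3 to 10266.6 (median 9206.55) in neocortex and from 9662.8 to 12596 (median 10299.4) in hippocampus, all 10 hippocampus arrays being above the neocortex median (0.23 ± 0.08 SE, limma adjusted p = 0.0491). These 3 were close to the threshold: of the 20 fits that leave out a single array, Ndufb10 missed it in 8, Ndufaf4 in 12 and Ndufa3 in 15. In S1P2-KO mice Ndufa3 (0.22, limma adjusted p = 0.0601) and Ndufa13 (0.16, limma adjusted p = 0.0863) did not pass.

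Of the other core subunits of complex I, Ndufs1 and Ndufv1 did not pass in wild-type mice. Ndufs1, the largest iron-sulfur subunit, averaged 3976 ± 231 (SD, n = 10) in wild-type neocortex and 4350 ± 408 in hippocampus (0.13, limma adjusted p = 0.322), and it passed in the mean over the 3 genotypes (0.15, limma adjusted p = 0.019). Ndufv1, the flavin subunit that takes the electrons of NADH, averaged 16230 ± 1450 and 15790 ± 1480 (-0.04, limma adjusted p = 0.769). Of the 5 complex I genes that were lower in wild-type hippocampus, none passed.

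In S1P3-KO mice Ndufc1 and Ndufa2, both accessory subunits, passed with Ndufb11. Ndufc1 read 3733.8, 4368.2, 6288.2, 5712.1 and 5397.5 in S1P3-KO neocortex and 7382.9, 6044.5, 7070.3, 6244.6 and 7858.7 in hippocampus. Of the 5 hippocampus arrays, 3 were above all of neocortex (0.47 ± 0.13 SE, limma adjusted p = 0.0107), and without hippocampus replicate 5 the value was 0.44 (limma adjusted p = 0.0352). Ndufa2 read 1427.4, 2415.1, 3292.4, 3145.8 and 2977.9 in neocortex and 2864.9, 3116, 3743.6, 3099.2 and 5461.5 in hippocampus (0.50 ± 0.16 SE, limma adjusted p = 0.0286). Both the low neocortex replicate 1 and the high hippocampus replicate 5 stood out for Ndufa2, and the call was lost in 4 of the 10 fits that leave out an array, at 0.28 without the former (limma adjusted p = 0.236) and 0.33 without the latter (limma adjusted p = 0.198).

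Complex II, succinate dehydrogenase, links the chain to the citric acid cycle. In wild-type mice 5 of its 6 genes were higher in hippocampus and none passed (median 0.11). Sdha, the flavoprotein that oxidises succinate, averaged 1713 ± 171 (SD, n = 10) in wild-type neocortex and 1917 ± 256 in hippocampus (0.16 ± 0.09 SE, limma adjusted p = 0.25). Sdhb, the iron-sulfur subunit, averaged 6504 ± 570 and 6767 ± 689 (0.06, limma adjusted p = 0.656). Sdhd, a membrane anchor of the complex, passed in S1P3-KO mice. It read 2698.2, 3242, 4399.6, 4859 and 4483.3 in S1P3-KO neocortex and 4113.6, 4968.3, 5875.3, 4364.2 and 6476.3 in hippocampus. Of the 5 hippocampus arrays, 3 were above all of neocortex (0.40 ± 0.13 SE, limma adjusted p = 0.0298), and the call was lost in 4 of the 10 fits that leave out an array, among them those without neocortex replicate 1 (0.29, limma adjusted p = 0.168) and without hippocampus replicate 5 (0.33, limma adjusted p = 0.133). Sdha (0.21) and Sdhd (0.20) passed in the mean over the 3 genotypes (limma adjusted p = 0.00387 and 0.00782).

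Complex III hands electrons from ubiquinol to cytochrome c. In wild-type mice 7 of its 8 genes were higher in hippocampus (median 0.10). Uqcr11, a small accessory subunit, ran from 5140.7 to 7396.3 (median 6034.2) in wild-type neocortex and from 6047.4 to 9722.3 (median 7908.15) in hippocampus. Of the 10 hippocampus arrays, 7 were above every neocortex array (0.35 ± 0.09 SE, limma adjusted p = 0.00529), and the gene passed in all 20 fits that leave out a single array. Its values in S1P2-KO (0.22) and S1P3-KO mice (0.15) did not pass (limma adjusted p = 0.119 and 0.53). Cyc1, the cytochrome c1 subunit, averaged 17690 ± 1460 (SD, n = 10) in wild-type neocortex and 18860 ± 2120 in hippocampus (0.09, limma adjusted p = 0.423). Its dimmer probe set had the opposite sign (-0.19). Cycs, the mobile carrier to complex IV, averaged 1181 ± 214 and 1331 ± 307 (0.16 ± 0.12 SE, limma adjusted p = 0.428). In the mean over the 3 genotypes Cycs passed (0.24, limma adjusted p = 0.0171), but not without S1P3-KO hippocampus replicate 5 (0.19, limma adjusted p = 0.0578).

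Complex IV, cytochrome c oxidase, had the smallest median of the 5 complexes: 12 of its 15 tested genes were higher in wild-type hippocampus with a median of 0.05, and none passed as higher. Cox6a2 was the exception in the other direction, and it had the smallest p of all members in wild-type and S1P2-KO mice. In wild-type neocortex it ran from 1185.3 to 1782.1 (median 1439.55) and in hippocampus from 526.6 to 1076.8 (median 736.1), with means of 1434 ± 204 and 756.8 ± 161 (SD, n = 10). Every hippocampus array was below every neocortex array. No other tested member had groups without overlap in a genotype or tissue comparison, and 3.59% of all probe sets had them, in either direction, between the wild-type tissues. The difference was -0.91 ± 0.13 (SE; 95% interval -1.17 to -0.65; limma adjusted p = 3.71e-07).

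Cox6a2 gave a similar difference in both knockouts. In S1P2-KO mice it ran from 866.1 to 1699.2 (median 1308.4) in neocortex and from 369 to 876.3 (median 654.95) in hippocampus, 9 of 10 hippocampus arrays being below all of neocortex (-0.99 ± 0.13 SE, limma adjusted p = 4.79e-08). The S1P3-KO arrays read 1080.3, 1265.7, 1300.3, 1551 and 1350 in neocortex and 695.8, 577, 790.1, 780.1 and 1113.1 in hippocampus. Of the 5 hippocampus arrays, 4 were below all of neocortex, the exception being replicate 5 (-0.73 ± 0.19 SE, limma adjusted p = 0.00511; -0.85 without it, limma adjusted p = 0.00151). Over all alternatives and left-out arrays the estimate stayed between -0.97 and -0.85 in wild-type, -1.06 and -0.91 in S1P2-KO and -0.94 and -0.63 in S1P3-KO mice, and it passed each time.

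**Figure D2:**
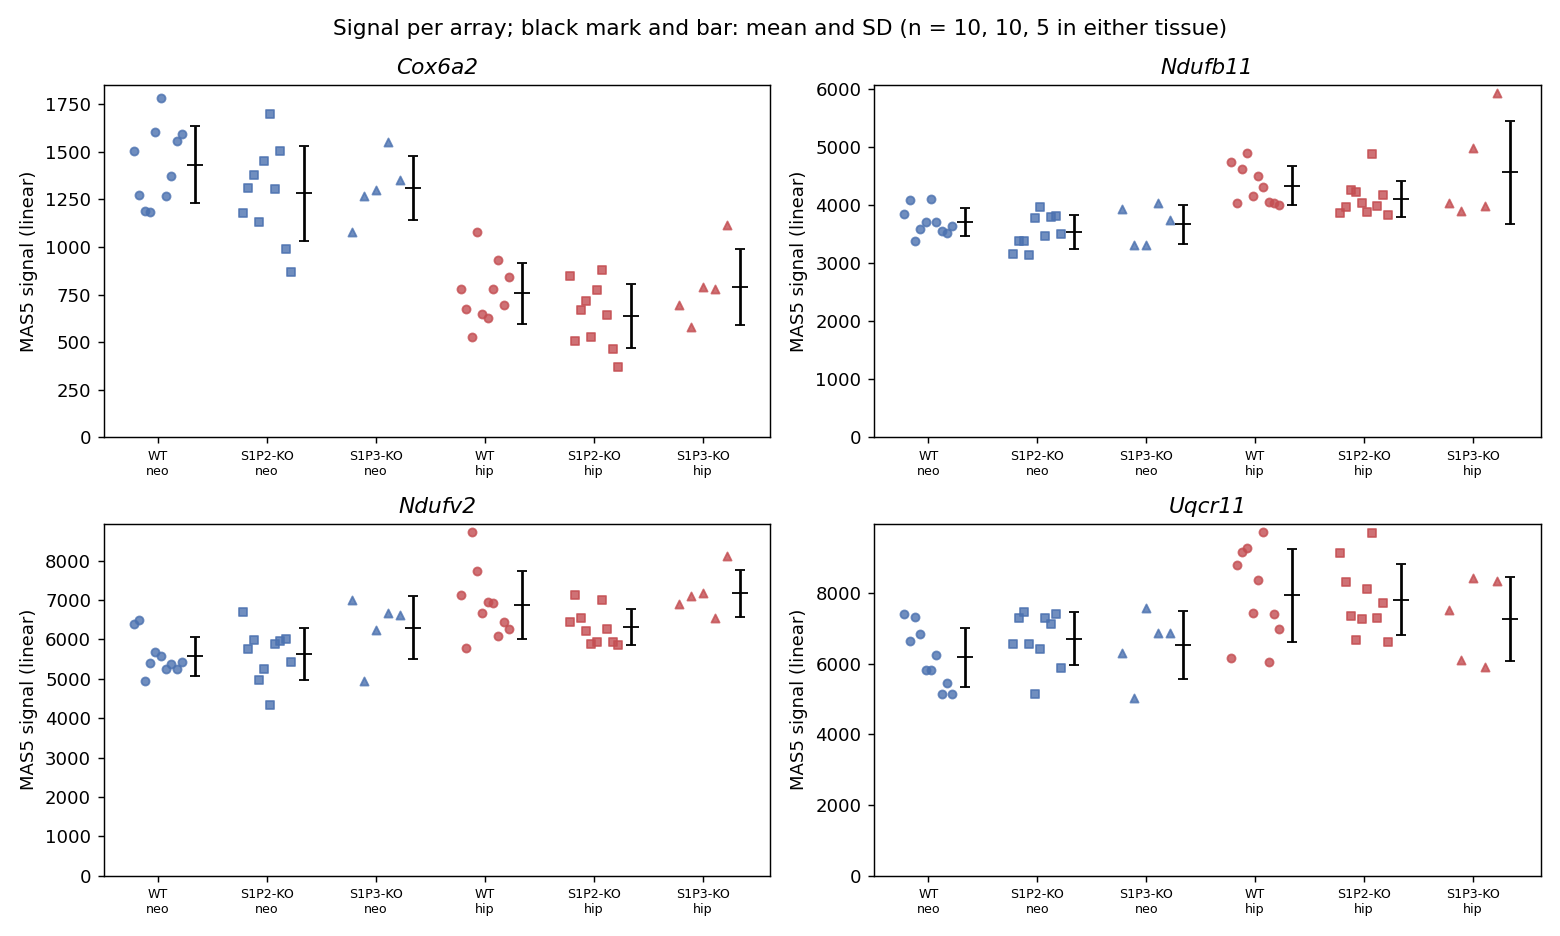
Signal on each array (linear scale, authors' units) of Cox6a2, Ndufb11, Ndufv2 and Uqcr11 in the 6 groups of genotype and tissue, each point an array. The wild-type hippocampus points of Cox6a2 (526.6 to 1076.8) all lie below the neocortex points (1185.3 to 1782.1), while the other 3 genes are a little higher in hippocampus and overlap.

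The partner isoform Cox6a1 is the widely expressed form of the same subunit, read by a probe set with shared or mixed probes. Such a difference was not seen for Cox6a1. It averaged 30780 ± 3330 (SD, n = 10) in wild-type neocortex and 30850 ± 3040 in hippocampus (0.0042 ± 0.07 SE, 95% interval -0.15 to 0.15, limma adjusted p = 0.984). The difference between both isoforms was not itself tested. Apart from muscle, Cox6a2 is known from fast-spiking interneurons that express parvalbumin. Pvalb, the parvalbumin gene, was itself lower in hippocampus in wild-type (-0.47, limma adjusted p = 2.14e-05), S1P2-KO (-0.39, limma adjusted p = 0.000383) and S1P3-KO mice (-0.53, limma adjusted p = 0.00115). Of the markers of all GABA neurons, Gad1 was at -0.0018, 0.0090 and 0.17 in wild-type, S1P2-KO and S1P3-KO mice and Gad2 at -0.40, -0.32 and -0.77, and neither passed in any of them. Sst, of another interneuron class, was 0.15 in wild-type mice (limma adjusted p = 0.13). The summed signal of the 4 interneuron markers ran from 24519.9 to 29328.1 in wild-type neocortex and from 23283.1 to 29122.9 in hippocampus, with no marker at 0.

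Some markers of striated muscle were also lower in hippocampus. Of 5 such markers, 4 were above the filter and 2 passed as lower in wild-type hippocampus: Myh7 (-0.48, limma adjusted p = 0.000932) and Acta1 (-0.40, limma adjusted p = 0.0175). Ckm (-0.27, limma adjusted p = 0.632) and Tnnt2 (-0.51, limma adjusted p = 0.0682) did not pass, and Mb was below the filter. In S1P2-KO mice Myh7 (-0.58) and Acta1 (-0.69) passed, while Ckm was at 0.35 and Tnnt2 at -0.50. In S1P3-KO mice only Acta1 passed (-0.64), with Myh7 at -0.44, Ckm at -0.46 and Tnnt2 at -0.61. The summed signal of the 5 ran from 1880 to 2954.5 in wild-type neocortex and from 1537.5 to 2308.5 in hippocampus, with none at 0. Of the other muscle-type isoforms of complex IV, Cox8b, read by a probe set with shared or mixed probes, averaged 738.3 ± 196 (SD, n = 10) in wild-type neocortex and 766.8 ± 197 in hippocampus (0.06, limma adjusted p = 0.851), and Cox7a1, at 100.3 ± 50.1 and 88.5 ± 74.4, was below the filter and not tested. The part of either marker list in the Cox6a2 result was not tested.

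The remaining isoforms of complex IV gave no call in any tissue comparison. Cox4i1, the widely expressed form of subunit IV, averaged 886.6 ± 129 (SD, n = 10) in wild-type neocortex and 848.2 ± 213 in hippocampus (-0.09, limma adjusted p = 0.747). Cox7a2, the widely expressed partner of Cox7a1, was 0.03 (limma adjusted p = 0.88), and Cox7a2l, which takes part in supercomplex assembly, was 0.02 (limma adjusted p = 0.933). Cox6b1, of the widely expressed form of subunit VIb, averaged 478.3 ± 164 and 524.4 ± 181 (0.08, limma adjusted p = 0.831). Its testis-type partner Cox6b2 averaged 362.5 ± 158 in wild-type neocortex and 516.6 ± 163 in hippocampus (0.52 ± 0.22 SE, limma adjusted p = 0.106), against -0.40 in S1P2-KO mice (limma adjusted p = 0.265). Cox6b2 varied much within each group, and it is read by a probe set with shared or mixed probes, as are 19 members in all.

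Cox5b, a nuclear subunit close to the catalytic core, passed in S1P3-KO mice. It read 6645.9, 6709.2, 6535, 7847.1 and 7652.2 in S1P3-KO neocortex and 7447.2, 7951, 9969.9, 8873.2 and 12111.8 in hippocampus. Of the 5 hippocampus arrays, 4 were above all of neocortex (0.36 ± 0.09 SE, limma adjusted p = 0.00447), and without replicate 5 the value was 0.27 (limma adjusted p = 0.0399). In wild-type mice Cox5b was 0.09 (limma adjusted p = 0.384).

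Complex V, the ATP synthase, was shifted in the same direction without reaching the threshold in wild-type mice, where 12 of its 14 genes were higher in hippocampus (median 0.12). Atp5a1, the alpha subunit of the catalytic head, averaged 18830 ± 1330 (SD, n = 10) in wild-type neocortex and 20170 ± 1720 in hippocampus (0.10, limma adjusted p = 0.231). It passed in the mean over the 3 genotypes (0.12, limma adjusted p = 0.00688). Atp5g1 and Atp5g2 encode the same protein of the membrane ring from separate genes. Atp5g1 averaged 305.1 ± 110 and 326 ± 84.2 (0.11, limma adjusted p = 0.734), and Atp5g2 1239 ± 293 and 1307 ± 234 (0.09, limma adjusted p = 0.694). Atp5mpl, a small proteolipid of the membrane part, passed in S1P2-KO mice: it ran from 6194.1 to 9928.8 (median 7970.95) in neocortex and from 8038 to 12674 (median 9738.85) in hippocampus, where all 10 arrays exceeded the neocortex median (0.34 ± 0.12 SE, limma adjusted p = 0.0391). The call was lost in 11 of the 20 fits that leave out an array.

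**Figure D3:**
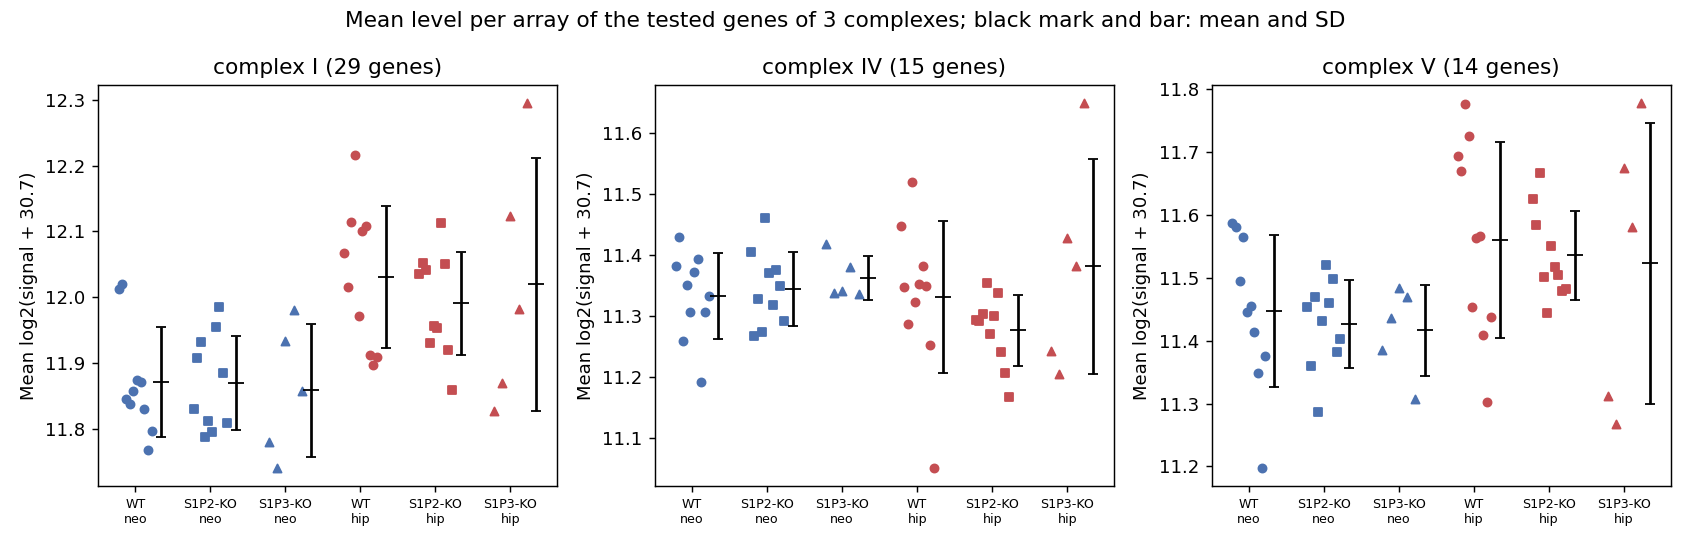
Mean log2 level of the tested genes of complex I (29 genes), complex IV (15) and complex V (14) on each array, by group, with the group mean and SD. The complex I mean was 11.87 ± 0.08 in wild-type neocortex and 12.03 ± 0.11 in wild-type hippocampus, while complex IV stood at 11.33 in both. The complex IV mean includes Cox6a2 (-0.91), and 12 of its 15 genes were higher in wild-type hippocampus. S1P3-KO hippocampus had the widest spread.

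Some markers of other cells also differed between the tissues, in either direction. The summed signal of 5 general neuron markers ran from 68295.5 to 83119.3 in wild-type neocortex and from 55068.4 to 66334.7 in hippocampus, without overlap, and most of that sum was Snap25 (51850 ± 6330 SD in wild-type neocortex). Of the 5, Snap25, a synaptic vesicle fusion protein (-0.40, limma adjusted p = 1.66e-05), and Nefm, a neurofilament (-1.20, limma adjusted p = 0.00083), were lower in hippocampus. Syt1 (-0.30), Stmn2 (-0.08) and Nefl (0.15) did not pass (limma adjusted p = 0.61, 0.397 and 0.373). Of 5 astrocyte markers only Gfap was higher (1.19, limma adjusted p = 2.28e-10), and Slc1a2 (0.19), Gjb6 (0.09), Aldoc (0.03) and Aqp4 (-0.16) did not pass. Of 4 tested oligodendrocyte markers only Mbp, of myelin, was higher (0.26, limma adjusted p = 0.0231), and Mobp (0.20), Mag (0.07) and Mog (0.03) did not pass. Choroid plexus markers summed to 4334.7 to 8061.3 in wild-type neocortex and 3680.2 to 45930.7 in hippocampus. Of 4 tested choroid plexus markers only Kl passed, as higher (2.96, limma adjusted p = 6.18e-08). Ttr (2.60), Folr1 (1.26) and Igf2 (-0.02) did not pass. Of 3 thalamus markers only Prkcd passed, as higher (0.83, limma adjusted p = 1.5e-07), and Tcf7l2 (0.13) and Lef1 (-0.01) did not. No marker of these lists was at 0 on any array, and their part in the result was not tested.

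Other mitochondrial gene lists were read from the same fit. The share of all probe sets that passed as higher in wild-type mice, 7.83% (7.62% in S1P2-KO mice), is the background for these counts, and the mitochondrial ribosome genes passed at a share near it. In wild-type mice 44 of 58 mitochondrial ribosome genes were higher in hippocampus (median 0.09) and 4 passed, led by Mrpl52 (0.31, limma adjusted p = 0.000959) and Mrpl15 (0.46, limma adjusted p = 0.00242). Of 18 import and protease genes 15 were higher (median 0.13) and 2 passed, the chaperonin partner Hspe1 (0.46, limma adjusted p = 0.000124) and the protease Clpp (0.26, limma adjusted p = 0.0164). Fatty acid oxidation had the highest median of these lists (0.24), with 11 of 13 genes higher and 2 passed, Eci1 (0.28, limma adjusted p = 0.0227) and Hadhb (0.23, limma adjusted p = 0.0228). All 13 were higher in S1P2-KO mice, where 3 passed.

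The fuel pathways upstream had medians nearer 0 in wild-type mice. Of 16 citric acid cycle and pyruvate dehydrogenase genes 9 were higher (median 0.02), and Suclg1 (0.24, limma adjusted p = 0.0402) and Dlat (0.29, limma adjusted p = 0.0467) passed. In S1P3-KO mice 14 of these 16 were higher, against 49.4% of all probe sets. Their median was 0.20, against 0.14 for the respiratory chain members. Without S1P3-KO hippocampus replicate 5 the median of the respiratory chain members was 0.05, and the citric acid cycle list was not refitted. Glycolysis had 2 genes that passed as higher and 4 as lower among 14 (median 0.03), against 7.83% and 6.74% of all probe sets. Among these glycolysis genes Ldha, which makes lactate, was lower (-0.28, limma adjusted p = 0.000133), and Pfkl, a phosphofructokinase form, was higher (0.41, limma adjusted p = 0.00323). None of 10 carrier and porin genes or 8 redox defence genes passed. Of 9 regulators of mitochondrial gene expression only Gabpa, the DNA-binding subunit of the ETS factor GABP, passed (0.36, limma adjusted p = 0.0355), and it passed in S1P2-KO (0.45, limma adjusted p = 0.0063) and S1P3-KO mice as well (0.54, limma adjusted p = 0.03). These lists were tested over all probe sets, with no test of a list as a whole.

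Loss of S1P2 was not accompanied by a detected change of any respiratory chain gene in neocortex. None of the 73 members passed, where 0% of all 8534 probe sets passed; at an unadjusted p under 0.05, 1 member (1.37%) stood against 746 probe sets (8.74%). The members' median difference was -0.02, and 25 of 73 were higher in S1P2-KO, against 48.4% of all probe sets. The smallest p belonged to Cox6b2, which ran from 168.6 to 566.3 (median 379.15) in wild-type and from 368.2 to 904.6 (median 513.35) in S1P2-KO neocortex. Of the 10 S1P2-KO arrays, 9 were above the wild-type median, and both groups overlapped (0.59 ± 0.20 SE, limma adjusted p = 0.341). A dimmer probe set of Cox6b2 gave 0.05 ± 0.13 (limma adjusted p = 0.939). The next smallest p-values belonged to Cox5b (-0.11), Cox7b (-0.19), Sdhd (0.17), Cycs (-0.21) and Ndufs4 (-0.20), whose limma adjusted p lay between 0.591 and 0.62.

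Loss of S1P3 likewise gave no call among the members in neocortex. None of 73 passed, and 0% of all probe sets did; 5 members (6.85%) had an unadjusted p under 0.05, against 895 probe sets (10.5%). The median was -0.02 and 34 of 73 members were higher, against 49.6% of all. Cox6c, a small subunit of complex IV, had the smallest p: wild-type arrays ran from 16226.1 to 22148.4 (median 18801.2) and S1P3-KO arrays read 21529.1, 21322.3, 20506.4, 20740 and 22196.9. All 5 were above the wild-type median and 1 was above all wild-type arrays (0.20 ± 0.07 SE, limma adjusted p = 0.247). In order of p Cox6c was followed by Cox5b (-0.20, limma adjusted p = 0.325), Cox6b2 (0.61, limma adjusted p = 0.384), Sdhd (-0.25, limma adjusted p = 0.424), Cyc1 (-0.15, limma adjusted p = 0.432) and Cox6a1 (-0.17, limma adjusted p = 0.496). Sdhd and Cox6a1 moved with single S1P3-KO arrays, to -0.13 without replicate 1 for Sdhd and to -0.06 without replicate 2 for Cox6a1.

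Sdhd had estimates of opposite sign in the knockouts. In neocortex it ran from 3300.9 to 5237.1 (median 4545.3) in wild-type mice and from 4156 to 5877.4 (median 5116.45) in S1P2-KO mice, 5 of whose arrays were above all wild-type arrays. The S1P3-KO arrays read 2698.2, 3242, 4399.6, 4859 and 4483.3, of which 2 were below all wild-type arrays. Between both knockouts Sdhd was 0.42 ± 0.11 higher in S1P2-KO (SE; limma adjusted p = 0.642). In that comparison 0 of 73 members and 0% of all probe sets passed, with 3 members (4.11%) and 506 probe sets (5.93%) at an unadjusted p under 0.05. Cox6c (-0.21), Ndufa3 (-0.20), Cox7b (-0.23), Sdha (-0.17) and Ndufv2 (-0.165) came next, with limma adjusted p from 0.696 to 0.847.

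**Figure D4:**
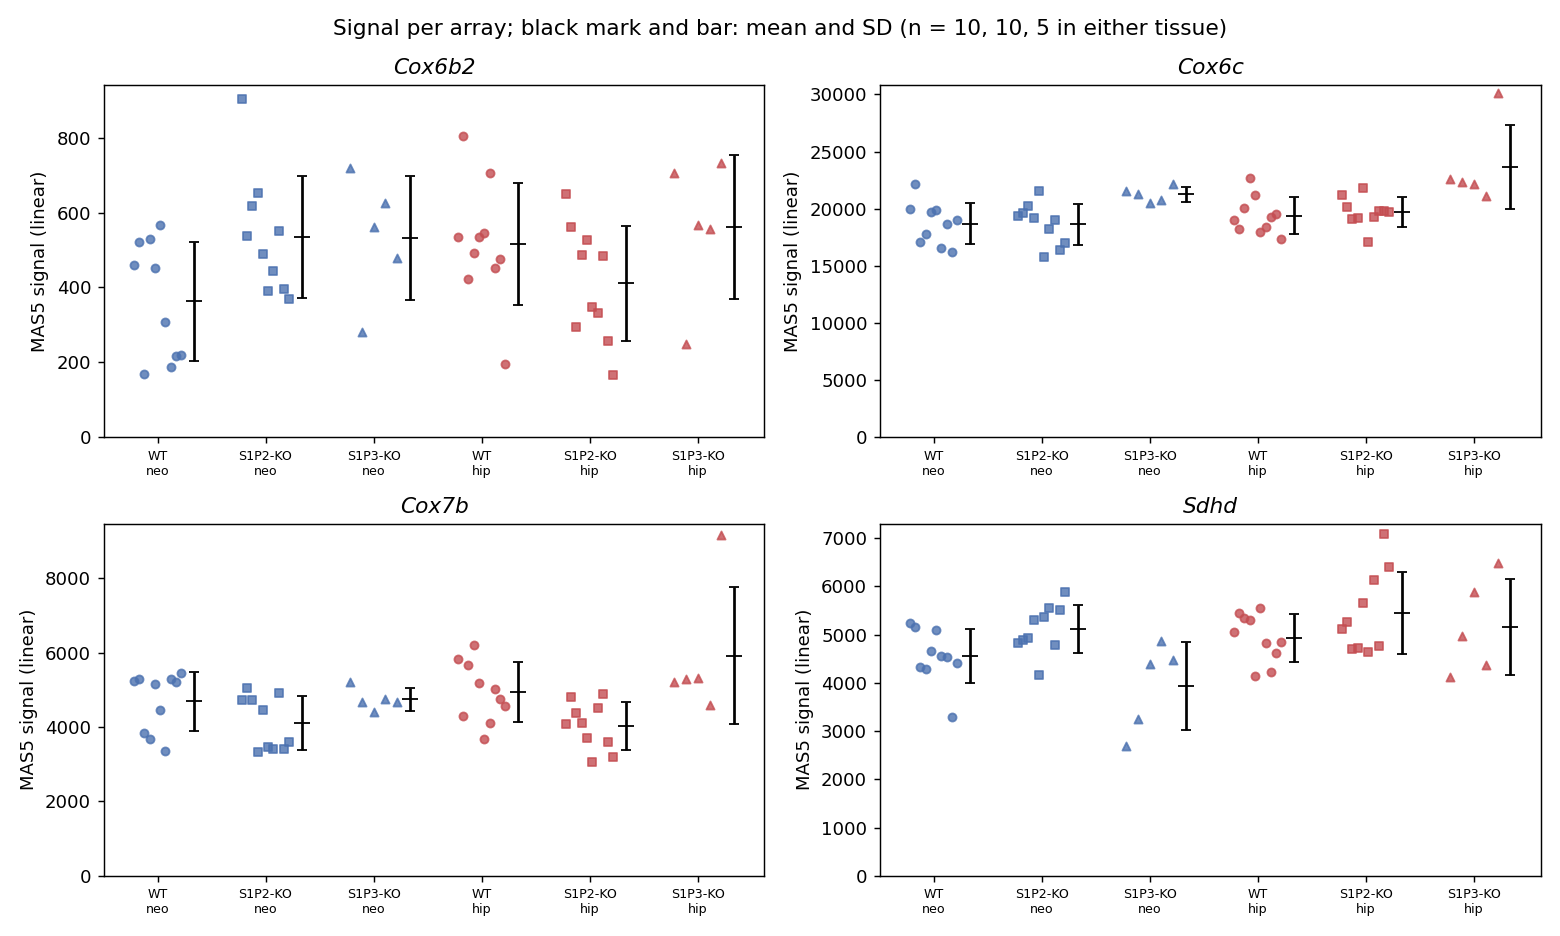
Signal on each array (linear scale, authors' units) of Cox6b2, Cox6c, Cox7b and Sdhd in the 6 groups, each point an array. In all 4 genes the knockout points overlap the wild-type points of the same tissue, and S1P3-KO hippocampus replicate 5 is the highest point of Cox6c (30110.4) and Cox7b (9160.9).

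In hippocampus the S1P2-KO arrays were close to wild-type as well. None of 73 members passed (0% of all probe sets); 1 member (1.37%) had an unadjusted p under 0.05, against 473 probe sets (5.54%). The median was -0.03 and 24 of 73 members were higher, against 49.1% of all. Cox7b, a small subunit of complex IV, was that member. It ran from 3680 to 6211.8 (median 4898.5) in wild-type and from 3057.5 to 4900 (median 4087.7) in S1P2-KO hippocampus. Of the 10 S1P2-KO arrays, 9 were below the wild-type median and 3 below every wild-type array (-0.29 ± 0.11 SE, limma adjusted p = 0.809). Ndufv2 (-0.11), Cox6a2 (-0.25 ± 0.15 SE), Cycs (-0.20), Ndufb5 (-0.12) and Cox4i1 (-0.23) followed, with limma adjusted p from 0.905 to 0.925. The value of Cox4i1 turned to 0.077 when all its probe sets were averaged.

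The S1P3-KO hippocampus had 3 of 8534 probe sets past the threshold (0.0352%, with 0.0234% higher and 0.0117% lower), and no member was among them. Here 3 members (4.11%) had an unadjusted p under 0.05, against 814 probe sets (9.54%). The median was 0.02 and 41 of 73 members were higher, against 47.9% of all; without replicate 5 the median was -0.07. Cox6c again had the smallest p: wild-type arrays ran from 17351 to 22702.6 (median 19127.2) and S1P3-KO arrays read 22571.7, 22322.5, 22163.9, 21119.6 and 30110.4. All 5 were above the wild-type median and only replicate 5 was above all wild-type arrays (0.29 ± 0.08 SE, limma adjusted p = 0.187; 0.19 without it, limma adjusted p = 0.396). Ndufb9 (0.24), Cyc1 (-0.21), Ndufb2 (-0.285), Sdhc (0.22) and Cox7b (0.25) came next, with limma adjusted p from 0.491 to 0.57. Without replicate 5 Ndufb9 was 0.10 and Cox7b 0.06, and without replicate 1 Cyc1 was -0.11. The S1P3-KO comparisons of both tissues use different arrays, but whether they share mice is not given in the labels.

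Between both knockouts in hippocampus 0 of 73 members and 0% of all probe sets passed; 8 members (11%) had an unadjusted p under 0.05, against 982 probe sets (11.5%). The median was -0.03 (S1P2-KO minus S1P3-KO), with 28 of 73 higher, against 51% of all. Cox7b ran from 3057.5 to 4900 in S1P2-KO mice and read 5205.4, 5284.7, 5315.3, 4594.2 and 9160.9 in S1P3-KO mice. Only S1P3-KO replicate 4 lay within the S1P2-KO range (-0.53 ± 0.14 SE, limma adjusted p = 0.168), and without replicate 5 the difference was -0.35 (limma adjusted p = 0.552). Cox6c (-0.26), Cycs (-0.40), Ndufa9 (-0.33), Ndufa2 (-0.30) and Cox8c (0.27) followed, with limma adjusted p from 0.234 to 0.396. Without replicate 5 Cox6c was -0.16, Cycs -0.24, Ndufa9 -0.14 and Ndufa2 -0.13, and the members' median turned to 0.03.

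**Figure D5:**
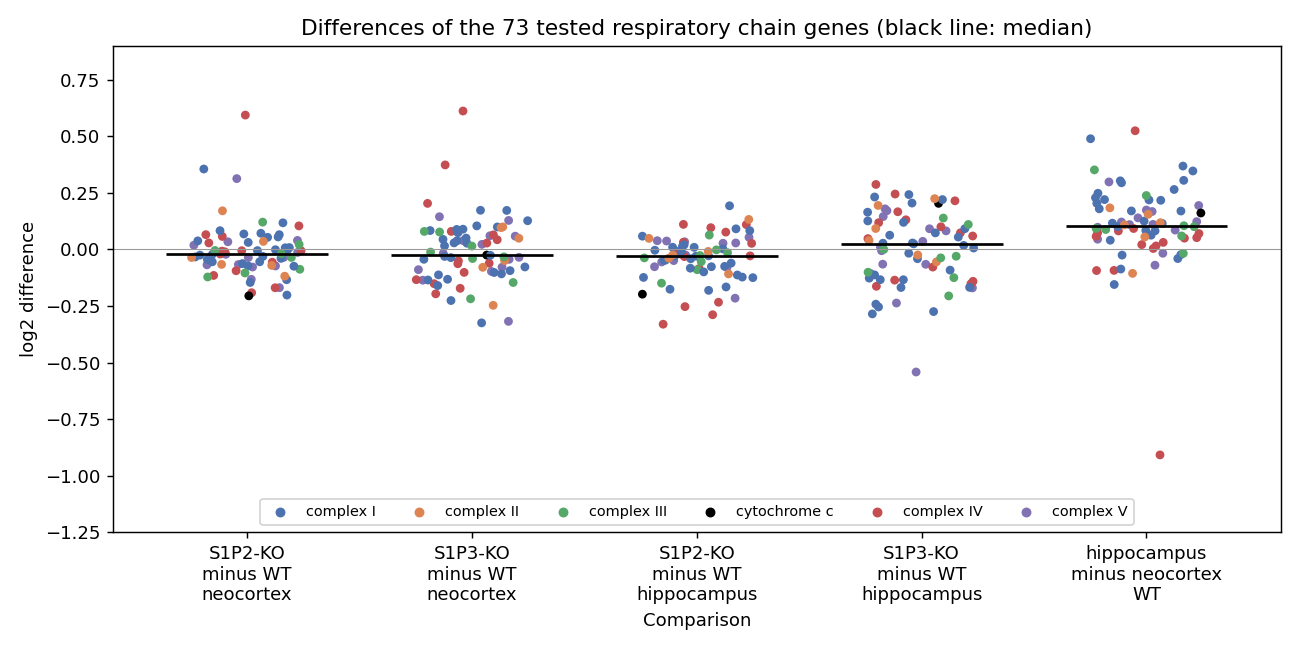
Log2 differences of the 73 tested genes in 4 comparisons of a knockout with wild-type mice and, for scale, between the tissues of wild-type mice, each point a gene coloured by complex and black lines the medians. The genotype medians lie between -0.03 and 0.02 and the tissue median is 0.10.

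The other mitochondrial lists also held no gene that passed in any of the 4 comparisons with wild-type mice or between the knockouts. The largest median among them was -0.18, of 10 carrier and porin genes between S1P2-KO and S1P3-KO hippocampus. There 5 of the 10 had an unadjusted p under 0.05, against 11.5% of all probe sets. These lists were not refitted without S1P3-KO hippocampus replicate 5, without which the median of the respiratory chain members changed sign.

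Whether the tissue difference itself depended on genotype was tested as an interaction. None of the 73 members passed for S1P2-KO against wild-type mice, and 0% of all probe sets did (222 probe sets, 2.6%, at an unadjusted p under 0.05). The smallest p belonged to Cox6b2, whose tissue difference was 0.92 lower in S1P2-KO than in wild-type mice (-0.92 ± 0.31 SE, limma adjusted p = 1), followed by Ndufs4 (0.39), Ndufaf4 (-0.26), Ndufv2 (-0.12), Ndufb6 (-0.16) and Sdhc (0.17), each with a limma adjusted p of 1. The dimmer probe set of Cox6b2 gave 0.00. For S1P3-KO against wild-type mice 0% of all probe sets passed too (438 probe sets, 5.13%, unadjusted). Cox5b (0.27), Ndufs4 (0.46), Ndufa2 (0.38), Ndufa9 (0.31) and Sdhd (0.29) each had a limma adjusted p of 0.875, and Ndufb7 (-0.22) one of 0.877. These values moved with single S1P3-KO arrays: without hippocampus replicate 5 Ndufa9 was 0.12 and Cox5b 0.18, without hippocampus replicate 1 Ndufb7 was -0.12, and without neocortex replicate 1 Ndufa2 was 0.16 and Sdhd 0.17. The calls that appeared in a single genotype, such as Cox5b and Ndufa2 in S1P3-KO mice, were thus not shown to differ between genotypes.

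Sex entered each fit as a covariate. In neocortex 5 of 8534 probe sets (0.0586%) differed between males and females, and none was a member; 3 members had an unadjusted p under 0.05, against 6.15% of all probe sets. Ndufc1 was 0.30 ± 0.07 lower in males (-0.30, limma adjusted p = 0.273), and Ndufs4 (0.27) and Cox6c (0.13) followed, both with a limma adjusted p of 0.778. In hippocampus 5 probe sets (0.0586%) differed and again none was a member. There Cycs (0.29, limma adjusted p = 0.885), Atp5g2 (0.25, limma adjusted p = 0.886) and Ndufs3 (-0.17, limma adjusted p = 0.952) had the smallest p.

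The members varied less within groups than all probe sets together, but their signal was also higher. In wild-type neocortex they averaged 11.74 (log2), against 9.82 over all probe sets, and spread at equal level was not compared. Each member was read by its brightest probe set, while all probe sets include dimmer ones of the same genes. The members' median SD over the 10 wild-type neocortex arrays was 0.18 (log2), against 0.26 over all probe sets, and over wild-type hippocampus 0.19 against 0.28. In S1P2-KO mice it was 0.17 against 0.26 in neocortex and 0.19 against 0.27 in hippocampus. Only S1P3-KO hippocampus reached 0.31, against 0.35 over all probe sets. In that group many members were high or low on the same arrays: replicate 5 was the highest of the 5 for 46 of 73 members, and replicates 1 and 2 were the lowest for 29 and 23. Replicate 5 was also the lowest for 9 members, and it is the array with the 3′ bias of 4.46. The same count over all probe sets was not made. In wild-type neocortex the tightest member was Ndufb5 (SD 0.06) and the widest Atp5j2 (SD 0.74).

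Below the filter, and not tested, were 7 members: Cox5a, Cox7a1, Cox8a, Cox14, Cox20, Ndufa12 and Ndufc2. Cox5a, a subunit of cytochrome c oxidase in all tissues, averaged 127.5 ± 51 (SD, n = 10) in wild-type neocortex and 128.4 ± 46.3 in hippocampus. Cox8a, the widely expressed form of subunit VIII, averaged 102 ± 49 and 75.17 ± 63.3. Such low signals of genes that all cells use say only that these probe sets gave little signal.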

How the data were processed

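RNA of neocortex and hippocampus (TRIzol, biotin-labelled cRNA, per the labels' protocols) was hybridised to 50 arrays in 6 groups named from the sample titles. The values are the authors' deposited MAS5 signal intensity per probe set on a linear scale, with MAS5 named in the submitters' processing notes; other upstream settings are not given in the sources used here. Of 12488 probe sets, 66 controls and those with a mean log2(signal + 30.7) at or below the pooled 30th percentile (signal 132.6) were left out, leaving 8534; 30.7 is the 10th percentile of all signals. Genotypes were compared within each tissue in limma 3.58.1 (R 4.3.3; lmFit and eBayes with trend) with sex as covariate, and tissues and interactions in a fit over all 50 arrays with sex within tissue. P-values were adjusted by Benjamini-Hochberg over all 8534, with 0.05 as threshold. Both tissues may share mice, which the fit over 50 arrays does not model. The design text gives group sizes that differ from the titles, which were followed. Array number limits the precision.

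Members were read by the probe set of highest mean. Named were, in each comparison, the members that passed (up to 10 in either direction), up to 6 in all of smallest p where fewer than 6 passed, and set isoforms and core subunits; of other lists, up to 2 of smallest p. The members and lists were chosen with earlier results of these data known. The fits were tested on simulated data. Alternatives were another pseudocount (100), no filter, the mean of a gene's probe sets, quantile normalization, median centring, array weights, the 3′ to 5′ ratio as covariate, a fit over the groups compared, no sex term, a replicate block, leaving out the 3 arrays of high ratio and leaving out each array. Promoters were read from a RefSeq table of GRCm38.p6.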

Additional observations from a re-analysis of the deposited data

Results flagged for a closer look

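Some measures were looked at for a single array far from the rest of its group, by Dixon's 95% critical value. They were the tested members named in the tissue comparison of a single genotype, the set isoforms and core subunits, and the members' mean level. Over these 186 groups chance flags about 1 in 20, and 9 were marked. Members named only in other comparisons, such as Cox6c and Cox7b, were not looked at in this way. S1P3-KO hippocampus replicate 5, the array with the highest 3′ to 5′ ratio, had the Atp5a1 signal at 27644.7, against 19270.1 to 21283.1 in the others. S1P2-KO hippocampus replicate 7, another array of high ratio, had Ndufb11 at 4887.2 (others 3829.4 to 4271.2), and without it Ndufb11 still passed between the tissues of S1P2-KO mice. Wild-type hippocampus replicate 10 was low for both Cox6b1 (121.2, others 388.3 to 799.8) and its testis-type partner Cox6b2 (196.3, others 423.9 to 804.4). Cox6b2 was also low in S1P3-KO hippocampus replicate 2 (249.5, others 556.4 to 732.9). Wild-type neocortex replicate 9 was low for both Cycs (711.5, others 1073.1 to 1487.2) and Sdhd (3300.9, others 4279.6 to 5237.1), and without it the S1P2-KO minus wild-type differences in neocortex were -0.28 for Cycs and 0.11 for Sdhd. Cox4i1 was low in S1P2-KO neocortex replicate 2 (452.8, others 712.4 to 1076.1), and Ndufa13 in S1P2-KO hippocampus replicate 3 (2566.5, others 2872.3 to 3252.8).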

How the results depend on the processing

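Counts of members that passed between the tissues moved with the processing, and the direction of most members did not. In wild-type mice the 9 became 5 with arrays centred on their median and 14 with the replicate block. In S1P2-KO mice the 4 became 1 with median centring, 8 with array weights, 10 in a fit over the groups compared and 9 with the replicate block. In S1P3-KO mice the 6 became 2 with array weights, 1 with the 3′ to 5′ ratio as covariate, 3 without the 3 arrays of high ratio and 1 in a fit over the groups compared. The 25 of the mean over the 3 genotypes became 15 with the covariate and 16 without the 3 arrays. Leaving out an array gave 6 to 10, 2 to 5, 3 to 9 and 18 to 29. The low count of 2 in S1P2-KO mice came without neocortex replicate 4, 5 or 10 or hippocampus replicate 1 or 7, and that of 3 in S1P3-KO mice without neocortex replicate 2 or hippocampus replicate 3 or 5. The wild-type count of 6 came without neocortex replicate 3. The cause was not tested. Cox4i1 between S1P2-KO and wild-type hippocampus turned from -0.23 to 0.077 with all its probe sets averaged. No member passed between genotypes or in an interaction under any alternative run, left-out arrays included; for sex, where none passed either, arrays were not left out 1 at a time. Whether replicate numbers pair the samples was not settled by the arrays. Deviations of same-numbered neocortex and hippocampus arrays correlated at -0.057 to 0.189 (median 0.1) in wild-type mice. They correlated at 0.036 to 0.225 (median 0.122) in S1P2-KO and -0.27 to 0.069 (median -0.018) in S1P3-KO mice. In the 3 genotypes 1 of 10, 5 of 10 and 2 of 5 arrays matched best with their own number. Between same-numbered wild-type and S1P2-KO arrays the median was 0.024 in neocortex and 0.066 in hippocampus. Members with 1 probe set (58 of 80) had no second reading.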
